A study of Mus musculus with 14 samples.

Results

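The genes described here encode the nuclear subunits of mitochondrial respiratory complexes II to V. They were chosen by symbol: Sdha, Sdhb, Sdhc, Sdhd, Cyc1 and every symbol that begins with Uqcr, Atp5, Cox4, Cox5, Cox6, Cox7 or Cox8, with 1 probe a gene, that of the highest mean raw signal. Atp5o was left out because it lies in the segment that is triplicated in these mice, and its values are given with the genotype comparison. The rule found 48 genes of the 24563 symbols on the array. Of these, 46 were among the 14161 genes whose probe passed the filter, that of being well above background on all arrays of 1 or more groups, namely 4 of complex II, 9 of complex III, 16 of complex IV and 17 of complex V. The complex IV genes Cox7b2 and Cox8c were above background on 0 arrays. Of the 46 measured genes, 42 encode subunits of a complex. The other 4 are Cox7a2l, a factor for supercomplexes, Atp5s and Atp5sl, whose current names are Dmac2l and Dmac2, and Atp5c1-ps, a pseudogene whose signal may be shared with Atp5c1.

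The study measured RNA of whole hind limb muscles with 1-colour Agilent arrays, 14 in all, 1 to a sample. The groups were extensor digitorum longus (EDL) of Ts1Cje mice (n = 3), EDL of disomic wild-type (WT) littermates (n = 3), soleus of Ts1Cje mice (n = 4) and soleus of WT littermates (n = 4), all labelled C57BL/6. The Ts1Cje mice, used to model Down syndrome, carry an extra copy of a distal part of chromosome 16, and no other allele, treatment or age is given in the labels. EDL is a fast-twitch muscle and soleus a mixed, slow-twitch one. The labels do not say whether replicates of a group were separate animals, so p-values measure the spread between these samples.

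Complex II, succinate dehydrogenase, passes electrons from succinate to ubiquinone. Complex III passes them on to cytochrome c, complex IV (cytochrome c oxidase, COX) hands them to oxygen, and complex V, the ATP synthase, uses the resulting proton gradient to make ATP. Several COX subunits come in a widely expressed isoform and a heart and skeletal muscle isoform encoded by another gene: Cox6a1 and Cox6a2, Cox7a2 and Cox7a1, Cox8a and Cox8b. Mitochondrial content is known to differ between fibre types, and in mice the fast oxidative IIA fibres, which soleus holds beside slow fibres, are rich in mitochondria.

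An array had 41.3% to 52.9% of its 55681 probes well above background and a 75th percentile of 62.4 to 144 intensity units. The members were among the brightest genes, with a median mean raw signal of 21100 intensity units (range 72.9 to 93700), and 0 of their probes were saturated. The muscle labels matched the markers: the 6 slow fibre genes were all lower in EDL, with Myh7, the slow myosin heavy chain, at a log2 difference of -6.79 in Ts1Cje and -6.25 in WT. The EDL arrays differed widely among themselves. Myh7 stood at log2 3.07, 2.37 and 5.65 over the array's 75th percentile in EDL Ts1Cje and 6.44, -0.02 and 5.74 in EDL WT. On the soleus arrays it stood at 10.08 to 10.66. The part of this spread in the member values was not tested. All 6 EDL arrays shared a slide with 1 soleus array, Ts1Cje replicate 1 (slide 1), apart from the other 7 soleus arrays (slide 2), so that muscle and slide can hardly be told apart. In bulk tissue, fewer cells of a type and less RNA per cell cannot be told apart.

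Of the 42 subunit genes, 32 matched a promoter in RefSeq (GRCm38.p6). The 250 bases before the start site of Cox8a and Cox6a1 are shown because these widely expressed isoforms were called lower in EDL, and that of Cox8b because it is the muscle partner of Cox8a. Each is on the minus strand and written 5′ to 3′, with the letters of any searched motif in capitals.
Cox8a, chr19:7217617-7217866: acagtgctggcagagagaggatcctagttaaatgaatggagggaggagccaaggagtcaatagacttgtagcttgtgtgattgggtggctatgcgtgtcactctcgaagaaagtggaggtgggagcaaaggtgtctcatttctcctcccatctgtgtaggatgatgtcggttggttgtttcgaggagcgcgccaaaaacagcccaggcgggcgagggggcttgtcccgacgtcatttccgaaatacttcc
Cox6a1, chr5:115348959-115349208: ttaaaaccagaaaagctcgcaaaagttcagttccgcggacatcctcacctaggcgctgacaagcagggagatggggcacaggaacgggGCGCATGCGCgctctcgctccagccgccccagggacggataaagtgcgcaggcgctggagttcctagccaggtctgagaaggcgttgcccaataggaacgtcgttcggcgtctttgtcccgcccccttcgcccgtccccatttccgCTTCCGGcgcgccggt
Cox8b, chr7:140900447-140900696: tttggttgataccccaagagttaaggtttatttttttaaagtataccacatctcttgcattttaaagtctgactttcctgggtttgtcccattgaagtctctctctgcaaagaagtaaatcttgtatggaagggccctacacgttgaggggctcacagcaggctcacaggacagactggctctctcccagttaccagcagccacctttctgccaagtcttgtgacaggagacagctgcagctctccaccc
Both strands of the 250 bases were searched for 5 motifs of factors known to act on such genes. The capitals in Cox6a1 are GCGCATGC of NRF1, which here reads on both strands and so overlaps itself, and CCGGAAG of ETS factors such as GABP, on the other strand. Cox8a and Cox8b held none of the 5. A gene counted if any of its promoters held the letters. The NRF1 letters stood in 5 of the 32 genes (15.6%), beside 2.56% of 27025 genes with promoters of the same length, and the ETS letters in 9 (28.1%), beside 7.83%. The estrogen-related receptor letters AAGGTCA were in 2 (6.25%, beside 4.7%), the YY1 letters AAGATGG in 1 (3.12%, beside 5.18%) and a MEF2 motif in 1 (3.12%, beside 3.7%). Members with the NRF1 letters were Cox6a1, Atp5g2, Atp5k, Atp5l and Sdhb. Matches are letters only and say nothing about binding.

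The first comparison set EDL against soleus within each genotype. At the scaling to the 75th percentile of each array, most genes of complexes II to V differed little between the muscles, and the members that differed were lower in EDL. In Ts1Cje mice 3 members fell in EDL: Cox8a by 0.62 on the log2 scale, Cox6a1 by 0.42 and Sdhc by 0.36. In WT mice 2 members fell: Cox8a by 0.38 and Cox4i2 by 0.26. These counts depend on the scaling, as given below: with quantile normalization 30 members fell in Ts1Cje and 19 in WT. Directions can also depend on the probe. Of 19 members with more than 1 probe, all probes agreed in sign for 14 in Ts1Cje and 12 in WT.

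In Ts1Cje mice 0 of 46 members were called higher and 3 lower in EDL (limma, adjusted p under 0.05 over all genes), where 17.5% of all genes were called higher and 12.4% lower. In WT mice 0 members were called higher and 2 lower, where 20.1% of all genes were called higher and 9.77% lower. In either direction 29.9% of all genes were called in Ts1Cje and 29.8% in WT. Among the 1202 genes with a mean raw signal of 3000 or more, 35.8% were called in Ts1Cje and 34.6% in WT. Of the 42 members at or above that signal, 3 and 1 were. At an unadjusted p under 0.05 there were 7 of 46 members in Ts1Cje and 4 in WT, beside 5921 and 5753 of all 14161 genes. The 95% confidence interval of the difference lay within 1.5-fold either way for 41 of 46 members in Ts1Cje and for 44 in WT, beside 36.1% and 35.2% of all genes. The exceptions were Cox8a and Cox6b2 in both genotypes and Atp5k, Cox6a1 and Sdhc in Ts1Cje. The median absolute log2 difference was 0.13 over the members and 0.32 over all genes in Ts1Cje, and 0.09 and 0.31 in WT.

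Groups that did not overlap were counted in the same way. In Ts1Cje 2 members were higher in every EDL array than in any soleus array and 9 were lower, where 20.4% and 14.9% of all genes were. In WT 4 members were higher and 3 lower, where 25.8% and 13.1% of all genes were. The counts of members higher in EDL were thus below the share of all genes in both genotypes, and the 9 lower members in Ts1Cje were near it.

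Complex II had 1 of its 4 genes called in Ts1Cje and 0 in WT, with a median log2 difference of -0.09 in Ts1Cje and 0.02 in WT. Sdhc and Sdhd anchor the enzyme in the membrane. Sdhc stood at log2 5.89, 5.66 and 6.08 over the array's 75th percentile in EDL Ts1Cje, 5.94, 5.97 and 5.99 in EDL WT, 6.04, 6.31, 6.30 and 6.32 in soleus Ts1Cje, and 5.99, 6.19, 6.12 and 6.15 in soleus WT. In Ts1Cje the highest EDL array lay above the lowest soleus array, which was replicate 1, on the slide of the EDL arrays. Sdhc fell 1.29-fold in EDL of Ts1Cje (log2 -0.36 ± 0.11 SE, limma adjusted p = 0.0279, n = 3 and 4). It stood at -0.15 in WT (adjusted p = 0.346), where the groups touched at 5.99 but did not overlap. Within slide 1, which leaves 1 soleus array, the Ts1Cje difference was -0.16 (adjusted p = 0.667), and without that array it was -0.43 (adjusted p = 0.0127). The call was lost in 5 of 7 fits that left out 1 array each (adjusted p from 0.0125 to 0.124). A second Sdhc probe gave -0.21 in Ts1Cje and -0.01 in WT.

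Sdhd stood at 6.87, 6.71 and 6.93 in EDL Ts1Cje, 6.85, 6.84 and 6.79 in EDL WT, 6.82, 6.84, 6.86 and 6.73 in soleus Ts1Cje, and 6.60, 6.71, 6.59 and 6.75 in soleus WT. It differed by 0.03 in Ts1Cje and 0.17 in WT (adjusted p = 0.843 and 0.179). Sdha, the flavoprotein that oxidises succinate, stood at 6.05, 5.95 and 5.94 in EDL Ts1Cje, 6.04, 5.96 and 6.00 in EDL WT, 5.96, 6.18, 6.19 and 5.99 in soleus Ts1Cje, and 5.96, 6.04, 5.89 and 5.97 in soleus WT. Its groups overlapped in both genotypes (log2 -0.10 in Ts1Cje and 0.03 in WT). Sdhb, the iron-sulphur subunit, stood at 8.45, 8.32 and 8.54 in EDL Ts1Cje, 8.49, 8.45 and 8.48 in EDL WT, 8.54, 8.42, 8.55 and 8.53 in soleus Ts1Cje, and 8.29, 8.61, 8.43 and 8.56 in soleus WT. The muscles overlapped there too, with differences of -0.07 in Ts1Cje and 0.00 in WT, neither called.

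In complex III 0 of 9 genes were called in either genotype. Their median log2 difference was -0.09 in Ts1Cje (range -0.21 to 0.08) and 0.05 in WT (range -0.07 to 0.19). Cyc1, which carries the haem that reduces cytochrome c, stood at 0.00 in Ts1Cje and 0.05 in WT. Uqcrfs1, the Rieske iron-sulphur protein, stood at -0.09 and 0.02 in the same order, and Uqcrc1, a core protein, at -0.05 and 0.09. None of these 3 was called.

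Complex IV held Cox8a, Cox6a1 and Cox4i2, 3 of the 4 members called in either genotype. Among its 15 subunit genes, the median log2 difference was -0.17 in Ts1Cje and 0.04 in WT, with 2 called lower in each genotype. Cox8a, the widely expressed form of the smallest COX subunit, stood at log2 5.87, 5.82 and 6.17 in EDL Ts1Cje, 5.93, 5.90 and 5.99 in EDL WT, 6.61, 6.58, 6.62 and 6.47 in soleus Ts1Cje, and 6.23, 6.30, 6.33 and 6.43 in soleus WT. Every EDL array lay below every soleus array. Cox8a fell 1.53-fold in EDL of Ts1Cje (log2 -0.62 ± 0.10 SE, limma adjusted p = 0.000641) and 1.3-fold in WT (log2 -0.38 ± 0.10, adjusted p = 0.0136). Both calls were kept in 7 of 7 fits without single arrays. Within slide 1, which leaves 1 soleus array, the Ts1Cje difference was -0.66. With the slide as a block the WT difference was -0.44 (limma adjusted p = 0.158), and 9.68% of all genes were called. No WT muscle was on both slides, so the slide term of that fit rests on soleus Ts1Cje replicate 1 alone. The fit therefore cannot separate slide from muscle in WT. A second probe of Cox8a went the same way, at -0.87 in Ts1Cje and -0.57 in WT.

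Its muscle partner Cox8b stood at 8.95, 8.71 and 8.93 in EDL Ts1Cje, 8.79, 9.13 and 8.83 in EDL WT, 8.99, 8.98, 9.09 and 9.17 in soleus Ts1Cje, and 8.73, 9.12, 8.83 and 8.82 in soleus WT. The muscles overlapped in WT, and in Ts1Cje every EDL array lay below every soleus array, by less than the test could call (log2 -0.19, adjusted p = 0.256, and 0.04 in WT, adjusted p = 0.813).

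Cox6a1, the widely expressed form of subunit 6a at the dimer surface, stood at 5.89, 5.62 and 5.96 in EDL Ts1Cje, 5.88, 5.73 and 5.89 in EDL WT, 6.52, 6.26, 6.08 and 6.12 in soleus Ts1Cje, and 5.88, 5.96, 6.06 and 6.25 in soleus WT. The muscles were apart in Ts1Cje and overlapped in WT. Cox6a1 fell 1.34-fold in EDL of Ts1Cje (log2 -0.42 ± 0.13 SE, limma adjusted p = 0.0309) and stood at -0.20 in WT (adjusted p = 0.27). The highest array was soleus Ts1Cje replicate 1, on the slide of the EDL arrays, and without it the difference was -0.33 (adjusted p = 0.0706). The call was lost in 4 of 7 fits that left out 1 array each (adjusted p from 0.0302 to 0.128). Its muscle partner Cox6a2 stood at 10.03, 9.91 and 9.88 in EDL Ts1Cje, 10.03, 10.23 and 9.92 in EDL WT, 9.90, 9.82, 9.85 and 10.02 in soleus Ts1Cje, and 9.71, 10.11, 9.78 and 9.97 in soleus WT. The groups overlapped in both genotypes (log2 0.04 in Ts1Cje and 0.16 in WT, not called).

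Neither form of subunit 7a was called. Cox7a2, the widely expressed form, stood at 6.69, 6.49 and 6.77 in EDL Ts1Cje, 6.72, 6.61 and 6.59 in EDL WT, 6.76, 6.85, 6.85 and 6.82 in soleus Ts1Cje, and 6.49, 6.70, 6.55 and 6.63 in soleus WT. Cox7a1, the muscle form, stood at 9.02, 8.87 and 8.87 in EDL Ts1Cje, 8.88, 9.1 and 8.75 in EDL WT, 9.14, 8.94, 9.17 and 9.01 in soleus Ts1Cje, and 8.62, 9.1, 8.70 and 8.85 in soleus WT. The muscles overlapped for both genes in both genotypes. The log2 differences of Cox7a2 were -0.17 in Ts1Cje and 0.05 in WT, and those of Cox7a1 were -0.15 and 0.09.

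**Figure D1:**
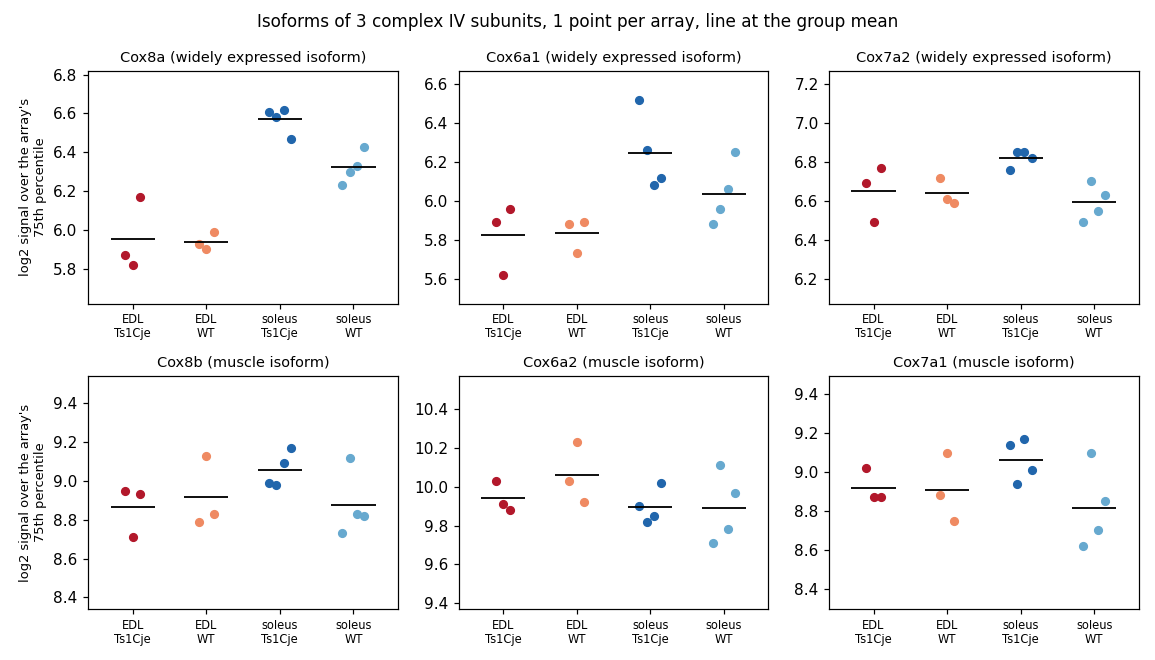
Log2 signal over the array's 75th percentile for the widely expressed isoform (top row) and the muscle isoform (bottom row) of 3 complex IV subunits, 1 point per array, with a line at the group mean. For Cox8a every EDL array, up to 6.17, lies below every soleus array, from 6.23, while the muscle isoforms overlap between the muscles except for Cox8b in Ts1Cje.

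Cox4i2, an isoform of subunit 4 known from lung, stood at 1.31, 1.32 and 1.16 in EDL Ts1Cje, 1.29, 1.34 and 1.21 in EDL WT, 1.52, 1.5, 1.5 and 1.45 in soleus Ts1Cje, and 1.55, 1.5, 1.45 and 1.66 in soleus WT. Every EDL array lay below every soleus array. Cox4i2 fell 1.2-fold in EDL of WT (log2 -0.26 ± 0.09 SE, limma adjusted p = 0.036), and in Ts1Cje it stood at -0.23 (adjusted p = 0.0616). The WT call was lost in 6 of 7 fits that left out 1 array each (limma adjusted p from 0.0412 to 0.123). It was also lost with the slide as a block (log2 -0.31, limma adjusted p = 0.244), where the slide term rests on 1 soleus Ts1Cje array. Cox4i1, its widely expressed partner, stood at 8.71, 8.61 and 8.64 in EDL Ts1Cje, 8.61, 8.66 and 8.57 in EDL WT, 8.75, 8.60, 8.67 and 8.61 in soleus Ts1Cje, and 8.44, 8.67, 8.53 and 8.59 in soleus WT, with overlap throughout.

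Cox6b1, the widely expressed form of subunit 6b, stood at 5.09, 5.08 and 5.28 in EDL Ts1Cje, 5.10, 5.30 and 5.11 in EDL WT, 5.33, 5.18, 5.09 and 5.31 in soleus Ts1Cje, and 4.98, 5.22, 5.19 and 5.18 in soleus WT. Cox6b2, its testis form, stood at 0.05, -0.16 and -0.45 in EDL Ts1Cje, -0.35, 0.04 and -0.41 in EDL WT, 0.17, -0.63, 0.02 and 0.67 in soleus Ts1Cje, and -0.20, 0.05, -0.21 and 0.16 in soleus WT. The muscles overlapped for both, and neither was called. Cox7b, another small COX subunit, stood at 8.17, 7.96 and 8.15 in EDL Ts1Cje, 8.14, 8.27 and 8.07 in EDL WT, 8.12, 8.12, 8.23 and 8.15 in soleus Ts1Cje, and 7.90, 8.12, 8.06 and 7.98 in soleus WT. It was not called, at log2 -0.06 in Ts1Cje and 0.15 in WT, with overlap in both.

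In complex V 0 of 14 subunit genes were called in either genotype, with a median log2 difference of -0.02 in Ts1Cje and 0.13 in WT. Atp5j2, subunit f of the membrane part, was the highest member in WT. It stood at 8.67, 8.5 and 8.69 in EDL Ts1Cje, 8.55, 8.73 and 8.49 in EDL WT, 8.51, 8.31, 8.56 and 8.54 in soleus Ts1Cje, and 8.11, 8.5, 8.32 and 8.25 in soleus WT. In WT 1 EDL array lay just under the highest soleus array, and the difference was 0.30 ± 0.11 SE (limma adjusted p = 0.0661), beside 0.14 in Ts1Cje. Atp5e, the epsilon subunit of the central stalk, was higher on every EDL array than on any soleus array of its genotype, with a log2 difference of 0.25 in Ts1Cje and 0.24 in WT (adjusted p = 0.0989 and 0.116). Atp5b, the catalytic beta subunit, stood at 0.14 in both genotypes. Atp5k, subunit e, was lowest of complex V in Ts1Cje, at -0.33 (adjusted p = 0.0553), and stood at 0.01 in WT.

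**Figure D2:**
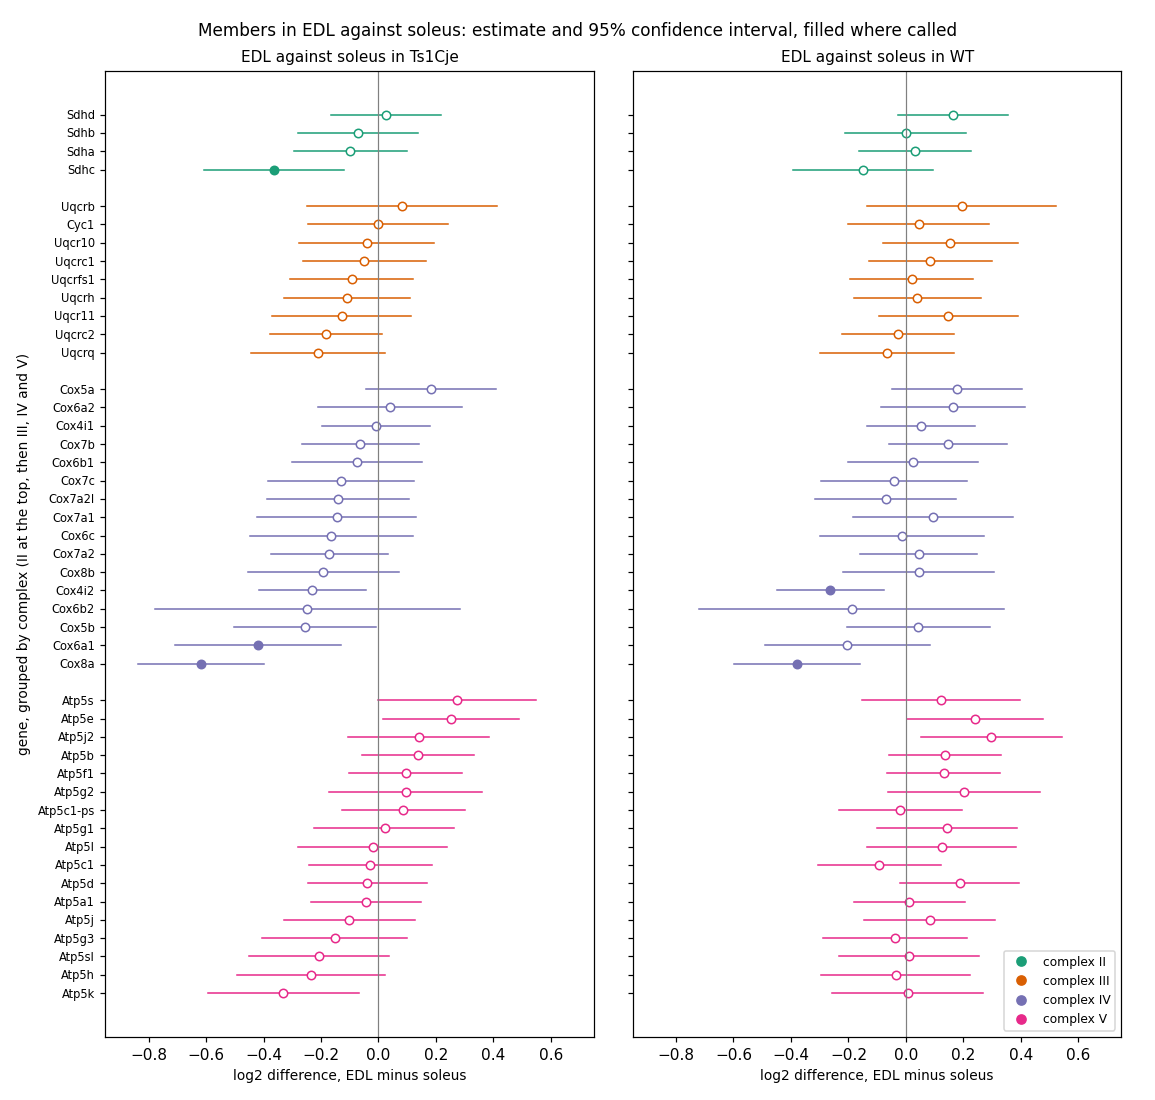
Log2 difference, EDL minus soleus, of the 46 measured members in Ts1Cje (left) and WT (right), grouped by complex, with the 95% confidence interval and filled points for called members. Called members are Sdhc, Cox6a1 and Cox8a in Ts1Cje and Cox4i2 and Cox8a in WT, and all of them lie below 0.

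The other scalings moved the members together. With normexp background correction 7 members were called lower in Ts1Cje (10.2% of all genes lower and 20.8% in either direction) and 2 in WT (5.55% and 16.1%), with member medians of -0.24 and -0.09. With quantile normalization 30 were called lower in Ts1Cje (14.5% of all genes lower and 29.1% in either direction) and 19 in WT (11.1% and 26.3%), with medians of -0.34 and -0.25. By complex, quantile normalization called lower 13 of 15 COX subunit genes in Ts1Cje and 8 in WT, 9 and 7 of 14 in complex V, 5 and 2 of 9 in complex III, and 2 and 2 of 4 in complex II. The 3 calls in Ts1Cje and the 2 in WT were made under all 3 scalings, and 0 members were called higher under any of them. In Ts1Cje 34 of 46 members had a negative difference under all 3 scalings and 1 a positive one, and in WT 14 were negative and 1 positive under all 3.

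Other bright genes were set beside the members, since the scalings treat bright probes differently. For 42 members with a mean raw signal of 3000 or more, the median log2 difference in Ts1Cje was -0.07, beside 0.12 for 1160 other such genes. In WT it was 0.04, beside 0.19. The gap between members and other bright genes was -0.19 in Ts1Cje and -0.15 in WT at the 75th percentile, -0.19 and -0.15 with normexp, and -0.35 and -0.21 with quantile normalization. The median member thus lay below the median of the other bright genes under all 3 scalings, while its own sign in WT turned with the scaling.

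**Figure D3:**
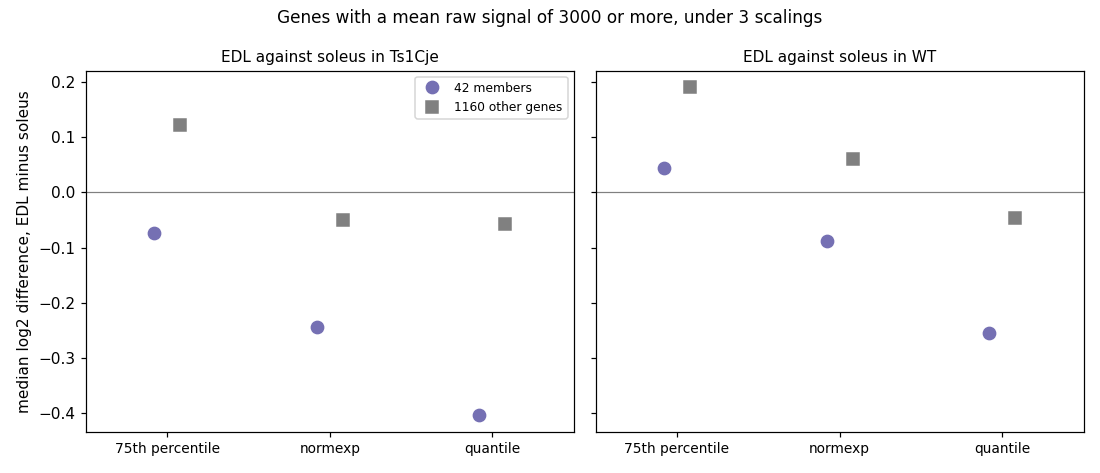
Median log2 difference, EDL minus soleus, of 42 bright members (circles) and 1160 other genes with a mean raw signal of 3000 or more (squares) under 3 scalings, in Ts1Cje (left) and WT (right). The members lie below the other genes by 0.15 to 0.35, and both medians move down with normexp and quantile normalization.

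Isoform pairs were then compared within arrays. The log2 difference between 2 probes on an array has no meaning as a level, since probes differ in brightness, but its change between groups does not depend on 1 scaling factor per array. The muscle isoform stood higher relative to the widely expressed one in EDL for subunits 8 and 6a and not detectably for subunit 7a. Probes of a pair share at most 24 of 60 bases. Exact permutation tests, two-sided and within genotype or within muscle, were run on 7 pairs for each of 2 questions, and p-values were adjusted over the 14.

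Cox8b minus Cox8a was 3.07, 2.90 and 2.76 in EDL Ts1Cje, 2.86, 3.23 and 2.83 in EDL WT, 2.38, 2.40, 2.47 and 2.70 in soleus Ts1Cje, and 2.5, 2.82, 2.5 and 2.38 in soleus WT. Every EDL array lay above every soleus array of its genotype. The shift in EDL was 0.43 in Ts1Cje and 0.42 in WT, and 0.42 over both (exact permutation p = 0.00163, adjusted p = 0.0114). The soleus array on the slide of the EDL arrays had 2.38, below all EDL arrays. Cox6a2 minus Cox6a1 was 4.13, 4.29 and 3.91 in EDL Ts1Cje, 4.15, 4.49 and 4.03 in EDL WT, 3.38, 3.56, 3.77 and 3.90 in soleus Ts1Cje, and 3.83, 4.15, 3.72 and 3.72 in soleus WT. The muscles were apart in Ts1Cje and overlapped in WT through soleus replicate 2. The shift was 0.46 in Ts1Cje, 0.37 in WT and 0.41 over both (exact permutation p = 0.00571, adjusted p = 0.0183), and without EDL WT replicate 2 it was 0.35 (adjusted p = 0.0533).

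Cox7a1 minus Cox7a2 averaged 2.27 ± 0.15 in EDL Ts1Cje, 2.27 ± 0.19 in EDL WT, 2.25 ± 0.13 in soleus Ts1Cje and 2.22 ± 0.12 in soleus WT (SD, n = 3, 3, 4 and 4). Its shift was 0.04 (exact permutation p = 0.632, adjusted p = 0.737), within the spread of each group. The shifts of Cox8 and Cox6a depended on the scaling: with quantile normalization they were 0.02 (adjusted p = 0.813) and 0.08 (adjusted p = 0.72), and with normexp 0.40 and 0.41 (adjusted p = 0.0229 each). The median difference of all genes in WT also moved with brightness: at the 75th percentile it was 0.18 for raw signals of 3000 to 10000 and 0.29 over 40000, and with quantile normalization -0.01 and -0.20. The part of brightness in the isoform shifts was not tested.

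Cox4i2 minus Cox4i1 was lower in EDL by 0.27 (exact permutation p = 0.000816, the smallest this design can give, adjusted p = 0.0114). It turned to 0.15 higher with quantile normalization (adjusted p = 0.0724) and stood at -0.14 with normexp (adjusted p = 0.187). Cox6b2 minus Cox6b1 stood at -0.19 (exact permutation p = 0.275, adjusted p = 0.385).

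Atp5g1, Atp5g2 and Atp5g3 encode the same mature c subunit of the ATP synthase rotor with different targeting sequences. Atp5g1 stood at 9.42, 9.27 and 9.45 in EDL Ts1Cje, 9.42, 9.49 and 9.29 in EDL WT, 9.39, 9.27, 9.25 and 9.53 in soleus Ts1Cje, and 9.09, 9.47, 9.21 and 9.26 in soleus WT. Atp5g2 stood at 8.14, 7.91 and 8.19 in EDL Ts1Cje, 8.11, 8.21 and 7.98 in EDL WT, 7.91, 7.98, 8.13 and 7.92 in soleus Ts1Cje, and 7.72, 8.17, 7.79 and 7.91 in soleus WT. Atp5g3 stood at 8.83, 8.63 and 8.77 in EDL Ts1Cje, 8.71, 8.80 and 8.58 in EDL WT, 9.07, 8.83, 8.77 and 8.91 in soleus Ts1Cje, and 8.59, 8.94, 8.60 and 8.81 in soleus WT. The muscles overlapped for all 3, and none was called.

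Within arrays, Atp5g2 minus Atp5g3 was higher in EDL by 0.24 (exact permutation p = 0.00653, adjusted p = 0.0183), and Atp5g1 minus Atp5g3 by 0.18 (exact permutation p = 0.00327, adjusted p = 0.0152). The pairs share Atp5g3 and are not independent. The Atp5g1 shift rests on 1 probe: a second Atp5g1 probe was lower in EDL, at a log2 difference of -0.44 in Ts1Cje and -0.39 in WT, and with the mean of both probes the shift turned to -0.07. With quantile normalization the Atp5g2 shift was 0.46 (adjusted p = 0.0114) and that of Atp5g1 0.07 (adjusted p = 0.455), and with normexp they were 0.27 and 0.17 (adjusted p = 0.0229 and 0.0286, exact permutation tests). Without EDL Ts1Cje replicate 3 the Atp5g2 shift was 0.22 (adjusted p = 0.0587).

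**Figure D4:**
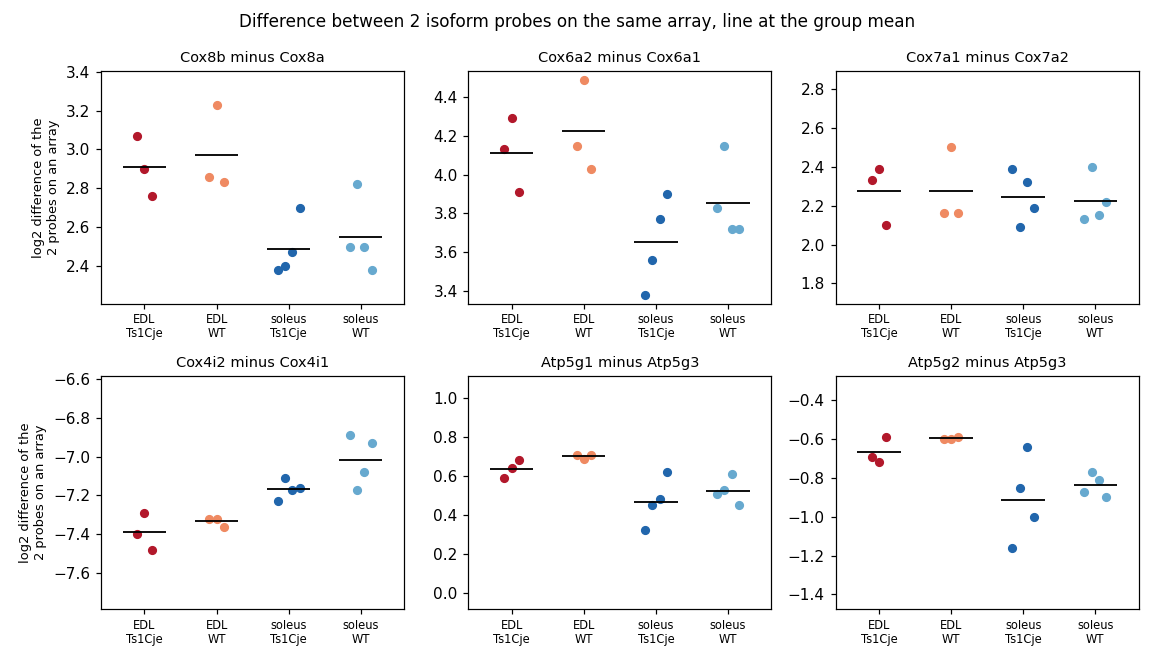
Log2 difference between 2 isoform probes on the same array for 6 pairs, 1 point per array, with a line at the group mean. Cox8b minus Cox8a and Cox6a2 minus Cox6a1 average 2.91 and 4.11 in EDL Ts1Cje and 2.97 and 4.22 in EDL WT, above the soleus groups at 2.48 and 3.65 (Ts1Cje) and 2.55 and 3.85 (WT), while Cox7a1 minus Cox7a2 lies between 2.22 and 2.27 in all 4.

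Genes that act with the complexes were taken from lists of general knowledge. Of 39 assembly factors, 35 were measured: 6 were called higher and 5 lower in EDL of Ts1Cje, and 9 and 2 in WT, at the scaling to the 75th percentile. Of all genes, 17.5% were called higher and 12.4% lower in Ts1Cje, near the list's counts there, and 20.1% and 9.77% in WT. With normexp the list had 2 higher and 5 lower in Ts1Cje and 6 and 2 in WT, and with quantile normalization 6 and 9 in Ts1Cje and 6 and 4 in WT. Cox11, which delivers copper to cytochrome c oxidase, stood at 3.46, 3.28 and 3.47 in EDL Ts1Cje, 3.59, 3.46 and 3.49 in EDL WT, 2.67, 2.72, 2.5 and 2.57 in soleus Ts1Cje, and 2.73, 2.75, 2.82 and 2.84 in soleus WT. It was higher on every EDL array and rose by log2 0.79 in Ts1Cje and 0.73 in WT (limma adjusted p = 4.80e-05 and 9.35e-05). Cox16, of the same complex's assembly, rose by 0.55 and 0.66, and Uqcc2, of complex III assembly, by 0.51 and 0.81. Sdhaf4, which helps assemble succinate dehydrogenase, stood at 3.03, 3.13 and 3.24 in EDL Ts1Cje, 3.27, 3.32 and 3.34 in EDL WT, 4.33, 4.06, 3.96 and 4.32 in soleus Ts1Cje, and 3.89, 3.80, 3.94 and 4.22 in soleus WT. It fell by 1.04 in Ts1Cje and 0.65 in WT (adjusted p = 6.37e-05 and 0.00192), and the groups were far apart. Cox19, another copper factor, fell by 0.63 in Ts1Cje and 0.48 in WT. Directions of these 5 genes were kept under normexp and quantile normalization, with 1 call lost, that of Uqcc2 in Ts1Cje with normexp (log2 0.33, adjusted p = 0.171).

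All 6 measured subunits that the mitochondrial genome itself encodes in complexes III to V had a log2 difference above 0 between EDL and soleus, with a median log2 difference of 0.52 in Ts1Cje and 0.26 in WT. ATP6, the proton channel subunit of the ATP synthase, stood at 9.75, 9.63 and 9.83 in EDL Ts1Cje, 9.89, 9.74 and 9.74 in EDL WT, 9.34, 9.12, 8.96 and 9.43 in soleus Ts1Cje, and 9.35, 9.40, 9.43 and 9.5 in soleus WT. Every EDL array was above every soleus array, and ATP6 rose by 0.53 in Ts1Cje and 0.37 in WT (limma adjusted p = 0.00465 and 0.0296). COX3, a core COX subunit, and ATP8, of the ATP synthase, rose by 0.55 and 0.51 in Ts1Cje (adjusted p = 0.0368 and 0.0398) and stood at 0.30 and 0.25 in WT. The direction turned with the scaling: with quantile normalization the medians were -0.08 in Ts1Cje and -0.22 in WT. The soleus array on the slide of the EDL arrays had COX1 at 11.95, beside 11.46 to 12.02 in EDL Ts1Cje and 10.86 to 11.39 on the other soleus Ts1Cje arrays. Within slide 1 the median of the 6 was 0.05 in Ts1Cje, and without that array 0.64.

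The second comparison set Ts1Cje against WT. No member of complexes II to V was called in EDL, in soleus, in the mean of both muscles or in the difference of the 2 effects (limma). Atp5o, the left-out complex V subunit of the stator stalk, was the gene of the ATP synthase that differed. It stood at log2 7.71, 7.46 and 7.64 in EDL Ts1Cje against 7.07, 7.24 and 7.09 in EDL WT, and at 7.64, 7.77, 7.75 and 7.88 in soleus Ts1Cje against 6.90, 7.28, 7.17 and 7.08 in soleus WT. Every Ts1Cje array lay above every WT array of its muscle. Atp5o rose 1.57-fold in soleus (log2 0.65 ± 0.10 SE, limma adjusted p = 0.022) and 1.48-fold in the mean of both muscles (log2 0.56 ± 0.08, adjusted p = 0.00634), and stood at 0.47 ± 0.12 in EDL (adjusted p = 0.717). The soleus call was lost in 6 of 8 fits without single soleus arrays (adjusted p from 0.0287 to 0.0731) and within slide 2 (log2 0.69, adjusted p = 0.154).

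In EDL 0 of 46 members were called, where 0.00706% of all genes were called higher and 0% lower. An unadjusted p under 0.05 was found for 0 members, beside 407 of all 14161 genes. Their median log2 difference was -0.02 (range -0.14 to 0.05), with 15 of 46 higher. The median ranged from -0.06 to 0.04 without single arrays and was above 0 without EDL Ts1Cje replicate 2, and 45 of 46 95% confidence intervals lay within 1.5-fold. By complex the medians were -0.03 in II, -0.01 in III, -0.02 in IV and -0.02 in V. The members of smallest p were Atp5sl at -0.14, Cox6a2 at -0.12 and Sdhc at -0.09, each with an adjusted p of 1. Atp5sl stood at 4.10, 4.07 and 4.08 in Ts1Cje against 4.36, 3.94 and 4.36 in WT. No member's groups were apart in EDL, where 2.84% of all genes did not overlap and were higher and 2.77% lower.

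In soleus 0 of 46 members were called, where 0.177% of all genes were called higher and 0.0706% lower. An unadjusted p under 0.05 was found for 6 of the 46 members, all higher. It was found for 1927 of all 14161 genes, a similar share. The median log2 difference was 0.11, with 39 of 46 members above 0, beside a median of 0.07 and 62.7% of genes above 0 over all genes. Without single arrays the member median ranged from 0.07 (without soleus WT replicate 1) to 0.17 (without soleus WT replicate 2), and with the 75th percentile taken over probes above background on all arrays, a setting added after seeing the data, it was 0.05, beside 0.01 for all genes. By complex the medians were 0.12 in II, 0.14 in III, 0.11 in IV and 0.11 in V. Atp5k stood at 8.19, 8.20, 8.40 and 8.18 in soleus Ts1Cje against 7.76, 8.10, 7.85 and 7.88 in soleus WT. Its groups did not overlap, and the difference was 0.34 ± 0.11 SE (limma adjusted p = 0.281). Cox8a stood at 0.25 (adjusted p = 0.313) and Cox7a2 at 0.23 (adjusted p = 0.316), from the values above, also without overlap. Atp5d, the delta subunit of the central stalk, stood at 0.22 (adjusted p = 0.336). Members without overlap thus numbered 4 higher and 0 lower of 46, where 6.12% and 2.28% of all genes did not overlap.

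Beside these values, 3 of 6 fast fibre markers fell in soleus of Ts1Cje (where 0.0706% of all genes were called lower): the fast myosin Myh4 by 4.12 on the log2 scale, Actn3 by 1.95 and Pvalb by 1.86 (limma adjusted p = 0.00647, 0.0132 and 0.0032). The other 3 were not called, with Atp2a1 at -0.57, Myh1 at -0.10 and Tnnt3 at 0.025. The summed level of the 6 spanned 10.76 to 11 on the log2 scale in Ts1Cje and 11.16 to 11.73 in WT, and that of slow fibre markers 12.03 to 12.41 and 11.78 to 12.13. The part of fibre type in the member values was not tested. Within slide 2, which leaves out soleus Ts1Cje replicate 1, the member median was also 0.11.

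Over both muscles the median log2 difference was 0.04 and 0 members were called, where 0.261% of all genes were called higher and 0.0282% lower. At an unadjusted p under 0.05 there were 0 members, beside 1340 of all 14161 genes. Atp5k (0.17), Cox8a (0.13) and Cox7a2 (0.12) had the smallest p (adjusted p from 0.563 to 0.611). All 46 confidence intervals lay within 1.5-fold, beside 78.4% of those of all genes. For the effect in EDL minus that in soleus, limma called 0 of 14161 genes, and 453 genes and 0 members had an unadjusted p under 0.05. The members' median difference was -0.13, beside -0.07 for all genes, and those of smallest p were Atp5k (-0.34), Cox5b (-0.30) and Uqcr11 (-0.28), each with an adjusted p of 0.987. Cox5b, a zinc-binding COX subunit, stood at 7.81, 7.64 and 8.02 in EDL Ts1Cje against 7.84, 7.90 and 7.84 in EDL WT, and at 7.98, 8.21, 8.19 and 7.93 in soleus Ts1Cje against 7.67, 7.96, 7.82 and 7.82 in soleus WT. Uqcr11, a small subunit of complex III, stood at 8.38, 8.13 and 8.27 in EDL Ts1Cje against 8.30, 8.35 and 8.18 in EDL WT, and at 8.42, 8.25, 8.53 and 8.34 in soleus Ts1Cje against 7.98, 8.35, 8.08 and 8.09 in soleus WT. The genotypes overlapped in both muscles for both genes.

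**Figure D5:**
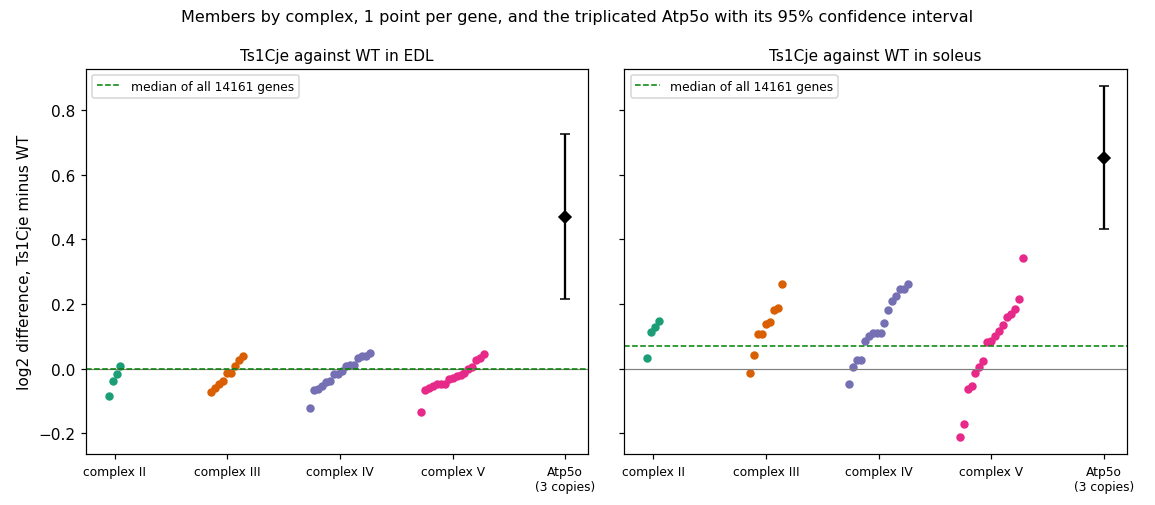
Log2 difference, Ts1Cje minus WT, of the 46 measured members by complex, 1 point per gene, with Atp5o and its 95% confidence interval, in EDL (left) and soleus (right). The dashed line is the median of all 14161 genes. Members lie between -0.14 and 0.05 in EDL and between -0.21 and 0.34 in soleus, below Atp5o at 0.47 and 0.65.

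Between genotypes 0 of the 7 isoform pairs were called. The smallest p was that of Cox4i2 minus Cox4i1, at -0.10 in Ts1Cje against WT (exact permutation p = 0.0429, adjusted p = 0.1). It was called without EDL Ts1Cje replicate 2 or soleus WT replicate 2 (-0.13 each, adjusted p = 0.0267 and 0.0367 by the exact permutation test). Atp5g1 minus Atp5g3 stood at -0.06 (adjusted p = 0.214) and was called without soleus Ts1Cje replicate 4 (-0.09, adjusted p = 0.02) and with the mean of its probes (-0.15, adjusted p = 0.04, exact permutation tests). Cox8b minus Cox8a stood at -0.07 and Cox6a2 minus Cox6a1 at -0.16 (adjusted p = 0.635 and 0.317).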

How the data were processed

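RNA of each sample (25 ng, per the labels) was labelled with Cy3 and each hybridised alone, in 1 colour. Spots were read with Agilent Feature Extraction, of which the file headers give version 11.5.1.1 and the submitters' processing notes 9.1. The deposited scanner files hold an intensity per spot with the background subtracted and no normalization between arrays. The authors also deposited normalized log2 values, and each array's values computed here correlated with them at 0.99989 or more.

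Values were log2 intensity minus the log2 75th percentile of the array. A gene had 1 probe, that of the highest mean raw signal, and was kept if the probe was well above background on all arrays of 1 or more groups. A limma model (version 3.58.1, in R 4.3.3) held a mean for each group of the 14 arrays (10 residual and 2.795 prior degrees of freedom), with two-sided tests and Benjamini-Hochberg adjustment over 14161 genes. A gene is called at an adjusted p under 0.05. The isoform pair tests were exact permutations, 1225 between muscles and 1400 between genotypes. The fit was tested on simulated data with the spread of all genes. Of 50 genes changed 1.5-fold between muscles, it called 28% in WT and 30% in Ts1Cje. For 1.25-fold changes these were 4% and 2%, and for 2-fold changes 68% and 62%. The median SE between muscles was 0.168 for all genes and 0.109 for the members, and fewer genes were changed than were called in the data. Members not called may thus still differ by small amounts.

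Members and lists were chosen with earlier results of these data known. Named genes were all members of isoform pairs, the 4 Sdh genes, the called members (the 3 of smallest p where fewer were called), Atp5o, and up to 4 called genes of each other list, of which 1 is not reported here. Others named beside them, among them Atp5e, Atp5b, Atp5d, Cyc1, Uqcrc1 and Uqcrfs1, were chosen after their values were seen. Alternatives were the background correction, the scaling, the filter, the probe rule, the slide, a replicate block, the variance model and each array left out. Same-numbered EDL samples deviated together (r from 0.116 to 0.4, 3 of 3 pairs best with their own number), and same-numbered soleus samples did not (r from -0.291 to 0.008). The design text speaks of littermate pairs without tying numbers to pairs. Same-numbered EDL samples also had neighbouring positions on the slide, so pairing and position cannot be told apart in EDL. Soleus Ts1Cje replicate 2 lay beside WT replicates 1 and 2 and deviated most like WT replicate 1 (r = 0.42). Replicate 3 lay beside WT replicate 2 and deviated most like it (r = 0.303). Replicate 4, between WT replicates 3 and 4, was closest to WT replicate 2 (r = 0.204). The part of position in the values was not tested.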

Additional observations from a re-analysis of the deposited data

Results flagged for a closer look

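Among 108 sets of 4 soleus arrays (46 members, Atp5o and 7 isoform pair differences, each in 2 groups), 3 had 1 array far from the other 3 by Dixon's test, which chance alone does in about 1 of 20 groups. Atp5k, subunit e of the ATP synthase, was high in soleus Ts1Cje replicate 3, at log2 8.40 over the 75th percentile, beside 8.18 to 8.20 on the others. Sdhc, an anchor of succinate dehydrogenase, was low in soleus Ts1Cje replicate 1, at 6.04, beside 6.30 to 6.32, and this is the soleus array that shared a slide with the EDL arrays. Cox6b1, a COX subunit, was low in soleus WT replicate 1, at 4.98, beside 5.18 to 5.22. No cause of these values was tested.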

How the results depend on the processing

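Of 600 recomputed counts, medians and isoform shifts, 560 were scored as kept. A count was kept if equal or within 1.5-fold, so counts that stayed at 0 are included. Medians were kept if they moved by less than 0.118, even where the sign changed. A called isoform shift was kept with its direction and call, and an uncalled one if it stayed uncalled. Of 168 recomputed tests of single named genes, 125 kept their direction and side of the threshold and 43 lost their call. Settings added after seeing the data were the 75th percentile over probes above background on all arrays, the replicate block shared across muscles, and the other gene lists under each scaling. Members called lower in EDL, in Ts1Cje and WT, are given with the percent of all genes called in either direction (29.9% and 29.8% in the main fit). They numbered 30 and 19 with quantile normalization (29.1% and 26.3%) and 10 and 5 with the detected-probe percentile (31.3% and 28.9%). Without the filter there were 1 and 1 (13% and 12.8%), and with only the arrays compared 1 and 1 (22.9% and 28.3%). The replicate block shared across muscles left 1 and 1 (27% and 25.9%). There were 7 with normexp in Ts1Cje (20.8%) and 0 with the slide as a block in WT (9.68%), where the slide term rests on 1 soleus Ts1Cje array. With a trended robust variance 1 member was called higher in WT (0 at first, 30.3% of all genes). Within slide 1, which leaves 1 soleus array, the member median in Ts1Cje was -0.079. Without single arrays, 1 to 4 members were called lower in Ts1Cje and 1 to 2 in WT, and 0 to 1 higher in WT. In those fits 20.9% to 29.4% of all genes were called in Ts1Cje and 22.8% to 27% in WT.

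The member median was -0.243 with normexp and -0.343 with quantile normalization in Ts1Cje. In WT it was -0.093, -0.25 and, with the detected-probe percentile, -0.13, and the cause was not tested. Without single arrays it ranged from -0.119 to -0.023 in Ts1Cje and from 0.004 to 0.078 in WT. Isoform shifts between muscles with quantile normalization were 0.017 for Cox8, 0.077 for Cox6a, 0.15 for Cox4i2 (turned) and 0.069 for Atp5g1. Cox4i2 was at -0.144 with normexp, and Atp5g1 at -0.07 (turned) with the mean of its probes, where its genotype shift was -0.15 and called. Without single arrays the shifts between muscles ranged from 0.347 to 0.463 for Cox6a and from 0.202 to 0.289 for Atp5g2, and those between genotypes from -0.128 to -0.081 for Cox4i2 and from -0.087 to -0.038 for Atp5g1, called without soleus Ts1Cje replicate 4.

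In the genotype comparisons 0 members were called under any setting run. A replicate block within muscle cannot move the member medians (-0.019 in EDL and 0.11 in soleus). With it the soleus call of Atp5o was lost (limma adjusted p = 0.163). Same-numbered soleus samples did not deviate together (r from -0.291 to 0.008), so that block may not follow real pairs. The Atp5o call was also lost with normexp (limma adjusted p = 0.117), without the filter (0.111) and with soleus alone (0.0918).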

Other observations

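Of 16 measured carriers and channels that serve the complexes, 4 were called higher and 4 lower in EDL of Ts1Cje, and 4 and 1 in WT, where 17.5% and 12.4% of all genes were called in Ts1Cje and 20.1% and 9.77% in WT. With normexp there were 1 higher and 5 lower in Ts1Cje and 1 and 2 in WT, and with quantile normalization 1 and 7 in Ts1Cje and 1 and 4 in WT. Vdac3, a channel of the outer mitochondrial membrane, rose by log2 0.64 in Ts1Cje and 0.69 in WT (limma adjusted p = 0.000253 and 0.000169). Its call was also made in both genotypes with normexp and with quantile normalization. Vdac2 rose by 0.36 in Ts1Cje and 0.42 in WT and Chchd10 by 0.48 and 0.50, and these calls were not made with normexp or quantile normalization, where Chchd10 turned to -0.07 in Ts1Cje. Other carriers went the other way. Slc25a3 stood at 6.74, 6.74 and 6.76 in EDL Ts1Cje against 6.98, 7.11, 7.11 and 7.10 in soleus Ts1Cje. Slc25a5 stood at 2.53, 2.04 and 2.30 against 3.04, 3.34, 2.64 and 2.80. In WT the muscles overlapped for both.

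Of 20 regulators of such genes, 1 was called higher and 5 lower in EDL of Ts1Cje, and 2 and 2 in WT, beside the same shares of all genes. With normexp and with quantile normalization 0 were called higher by limma, and 5 were lower in Ts1Cje and 2 in WT. The estrogen-related receptor gene Esrrb stood at 0.56, 0.24 and 1.1 in EDL Ts1Cje, 0.98, 0.57 and 1.03 in EDL WT, 2.74, 3.16, 2.98 and 3.11 in soleus Ts1Cje, and 2.76, 3.10, 2.79 and 3.01 in soleus WT. It was lower on every EDL array, at a log2 difference of -2.36 in Ts1Cje and -2.06 in WT (limma adjusted p = 2.79e-06 and 1.07e-05). Its relative Esrrg fell by 2.33 and 2.12, and Perm1, a muscle regulator induced by such receptors, by 0.58 in Ts1Cje (adjusted p = 0.0224). Mef2d rose by 0.33 and 0.41 and, in WT, Tfb2m by 0.50, calls that were not made with normexp or quantile normalization. Between genotypes 0 genes of these lists, of the assembly factors or of the mitochondrially encoded subunits were called by limma in EDL or in soleus. In soleus 0 of the 6 mitochondrially encoded subunits had a difference above 0 in Ts1Cje. Their median log2 difference was -0.24 (-0.20 with normexp and with quantile normalization), beside 0.11 for the members. In EDL 3 of the 6 were above 0, with a median of -0.02. No cause of this was tested.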
